A study of Mus musculus with 3 samples.

Results

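Granulocyte-monocyte precursors were taken as barcodes in which the summed UMIs (unique molecular identifiers, 1 per captured RNA molecule) of Elane, Mpo, Prtn3 and Ctsg reached 15 per 10000 UMIs. A barcode also needed at least 500 UMIs and 300 genes and at most 15% mitochondrial UMIs. By this rule 77 of 23699 kept cells were precursors: 71 of 3129 in the library of normal brainstem, 3 of 10925 in the first tumour library and 3 of 9645 in the second. The data are droplet single-cell RNA counts from a mouse model of diffuse midline glioma (DMG), a tumour of the brainstem. The 2 tumour libraries came from B6(Cg)-Tyrc-2J/J mice, 6 weeks old at surgery, that received 100000 cells of the mouse line DIPG4423 in the brainstem and were left untreated for 3 weeks. The normal library came from brainstem of the same strain without a tumour, and there was 1 such library. The labels give no number of animals for the normal library. Saline perfusion preceded dissection, beads took out myelin, and red cells were lysed before capture.

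Granulocyte-monocyte precursors are dividing cells of the bone marrow that give rise to neutrophils and monocytes, and in part to basophils and eosinophils. In the promyelocyte stage they fill their primary (azurophil) granules with the proteases neutrophil elastase (Elane), proteinase 3 (Prtn3) and cathepsin G (Ctsg) and with myeloperoxidase (Mpo), the enzyme that makes hypochlorous acid. Transcription of these genes ends at about the time the secondary granules form, so their messages mark mainly the early stages. Messages of both granule kinds were present together in 17 normal members described below. Healthy brain tissue is not a known site of these stages.

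The 4 rule genes lie at 3 places in the genome (GRCm38, GENCODE genes). Prtn3 (ENSMUSG00000057729, chr10:79874476-79883174, plus strand) and Elane (ENSMUSG00000020125, chr10:79886247-79888215, plus strand) are neighbours, 3072 bases apart. Mpo (ENSMUSG00000009350) is at chr11:87793581-87804413 on the plus strand and Ctsg (ENSMUSG00000040314) at chr14:56099881-56102574 on the minus strand. Ms4a3 (ENSMUSG00000024681, chr19:11629496-11640851, minus strand), a membrane protein of the same stage, is the marker that the rule did not use. Their promoters are shown because these 5 genes were detected in the same cells. The stretches run 5′ to 3′ toward the gene, from 250 bases before the RefSeq start (GRCm38.p6), and leave out bases that GENCODE calls exonic. Capitals mark matches, on either strand, to AACNG (the core bound by MYB), to GAGGAA or AGGAAG (forms of the PU.1 core, which overlap each other) or to TTNNGNAA (a C/EBP half-site pair). The Prtn3 stretch lies inside the longer GENCODE gene.
Elane, chr10:79886062-79886246: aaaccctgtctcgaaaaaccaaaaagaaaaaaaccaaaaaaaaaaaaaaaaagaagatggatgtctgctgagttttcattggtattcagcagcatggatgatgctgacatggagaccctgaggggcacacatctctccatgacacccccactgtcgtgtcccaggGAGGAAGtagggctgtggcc
Mpo, chr11:87793534-87793580: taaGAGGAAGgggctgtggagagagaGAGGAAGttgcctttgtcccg
Prtn3, chr10:79879417-79879613: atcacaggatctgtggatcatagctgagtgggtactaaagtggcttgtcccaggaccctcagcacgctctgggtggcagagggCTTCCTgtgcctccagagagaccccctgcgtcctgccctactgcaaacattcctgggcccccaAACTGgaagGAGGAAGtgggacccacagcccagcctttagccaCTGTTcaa
Ctsg, chr14:56102575-56102824: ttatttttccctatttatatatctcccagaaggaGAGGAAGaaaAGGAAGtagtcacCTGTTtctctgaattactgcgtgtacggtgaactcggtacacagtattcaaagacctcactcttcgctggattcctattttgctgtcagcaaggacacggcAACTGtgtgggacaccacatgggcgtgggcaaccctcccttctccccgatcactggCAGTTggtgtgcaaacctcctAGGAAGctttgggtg
Ms4a3, chr19:11640852-11641101: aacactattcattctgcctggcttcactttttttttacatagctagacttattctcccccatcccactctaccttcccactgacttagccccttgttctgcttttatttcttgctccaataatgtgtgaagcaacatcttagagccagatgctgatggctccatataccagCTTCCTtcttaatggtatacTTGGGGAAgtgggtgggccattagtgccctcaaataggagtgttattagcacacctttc
Bases not printed were searched too. GAGGAA was present in the 250 bases before the start of all 4 rule genes and not of Ms4a3. It is in 23.3% of the 32851 RefSeq promoters of that length. AGGAAG was present before all 5 genes and is in 29.5% of those promoters. The MYB core AACNG was before the 4 rule genes but is in 74.2% of all promoters, and TTNNGNAA, in 36.9% of them, was before Ms4a3 alone. The palindrome TTGCGCAA was in none of the 5. A match is a description of letters and not a bound site.

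The deposited tables held 12118, 10728 and 4354 barcodes with 151906460, 157114723 and 15035292 UMIs for the first tumour, second tumour and normal library. Kept cells had a median of 9012, 11443 and 2429 UMIs, so the normal library was the shallowest, and 26.3% of its barcodes were over the mitochondrial limit against 9.71% and 9.57%. Scrublet, run per library, marked 1.47% of kept normal cells and 3.43% and 2.47% of kept tumour cells as doublets. Between 8 and 31 kept barcodes were shared by a pair of libraries. One of them, shared by the second tumour and the normal library, was a precursor in 1 of the 2, and none was a precursor in both. With 1 normal library and 3 members in each tumour library no test between groups was made: 2 libraries against 1 cannot give an exact permutation p below 1 in 3. Intervals below are exact 95% intervals that cover counting error only.

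Precursor cells made up 2.27% (1.78 to 2.85) of kept cells in the normal library, 0.0275% (0.00566 to 0.0802) in the first tumour library and 0.0311% (0.00642 to 0.0909) in the second. The normal share was 77.5 times the mean tumour share, with a counting interval of 34.0 to 219. At a threshold of 10 per 10000 in place of 15 it was 48.0 times. Both tumour shares lay below the normal one and their intervals did not reach it, and the spread between normal animals is unknown. The rule was set with these data known, so the shares are a description.

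**Figure D1:**
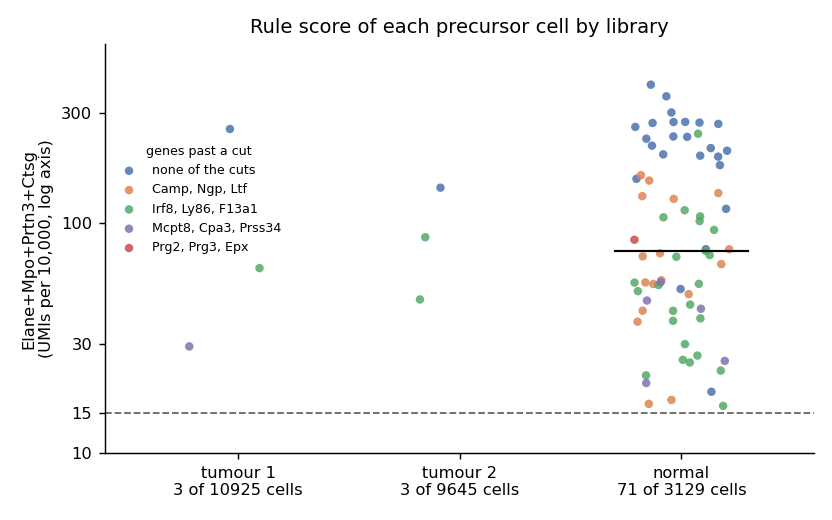
Summed Elane, Mpo, Prtn3 and Ctsg UMIs per 10000 (log axis) in each of the 77 precursor cells, by library, coloured by the further gene set the cell passes. The dashed line is the threshold of 15 and the bar is the normal median of 75.8. The 6 tumour cells lie between 29.2 and 256, within the normal range of 16.1 to 399.

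The score was spread widely among members. In the normal library it ran from 16.1 through a median of 75.8 to 399 per 10000, and 12 of the 71 members were between 15 and 30. Another 10 cells there were between 10 and 15, and the highest cell outside the rule had 14.6. The first tumour library had 2 cells between 10 and 15 and the second had 3. The 10 normal members nearest the threshold on the inside (16.1 to 25.5) had Ms4a3 UMIs in 4 cells, and the 10 cells nearest on the outside (10.0 to 14.6) in 3 cells. Cells with none of the 4 messages were 92.8% of kept cells in the normal library and 97.6% and 98.0% in the tumour libraries.

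Members were deep cells. The 71 normal members had a median of 9770 UMIs (529 to 35020) and 2977 genes, and 48 of them had over 3 times the median depth of their library. Their median mitochondrial share was 5.30%, against 2.55% for all kept cells of the library. One member was called a doublet. It had 540 UMIs and rested on 1 rule UMI, while the next fewest was 11 rule UMIs. All 4 rule genes were detected in 57 members, 3 of them in 10, 2 in 3 and 1 in 1.

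Cells of the later neutrophil stages were sorted out by score ranges, not as types. Immature neutrophils had Camp, Ngp and Ltf (secondary granule proteins) at 100 or more per 10000. Mature neutrophils had S100a8 and S100a9 at 100 or more and Csf3r, Cxcr2, Il1b and Retnlg at 10 or more. Ly6c2-Ccr2 cells, the range nearest to monocytes, had Ly6c2, Ccr2, F13a1 and Ms4a6c at 10 or more and were in no neutrophil range. Microglia were taken by a cut of 10 or more on microglial genes. A cell that passed the precursor rule was not counted again. The normal library held 71 precursors, 334 immature and 209 mature neutrophils, so precursors were 11.6% (9.14 to 14.4) of these 3 groups together. The first tumour library held 3, 36 and 237 cells (precursors 1.09%, 0.225 to 3.14), and the second 3, 20 and 403 (0.704%, 0.146 to 2.04). Immature neutrophils were 54.4% of the 3 groups in the normal library, 13.04% in the first tumour library and 4.70% in the second, while mature ones were 34.0%, 85.9% and 94.6%. Precursors and immature neutrophils took the larger part in the normal library and mature neutrophils in both tumour libraries. These are not shares of a neutrophil series alone. Of the 71 normal precursors 17 also passed the immature neutrophil cut. By ranges described below 24 others were in an Irf8 range, 5 in a basophil-gene range and 1 in an eosinophil-gene range. The Irf8 range held 1 and 2 of the tumour precursors, and the basophil-gene range 1 of the first library.

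Bone and B-precursor messages were also far higher in the normal library, while erythroid and platelet messages differed less. The summed library level of 6 bone genes (Bglap, Bglap2, Col1a1, Ibsp, Alpl, Sp7) was 729 CPM (counts scaled to the library total) in the normal library against 14.7 and 23.8 in the tumour libraries. The 7 B-precursor genes (Vpreb1, Vpreb3, Igll1, Ebf1, Cd79a, Rag1, Dntt) were at 619 CPM against 77.2 and 77.6. The 8 erythroid genes were at 700 CPM in the normal library and 670 and 594 in the tumour libraries, and the 5 megakaryocyte and platelet genes at 97.8, 66.4 and 69.0 CPM. The first 2 lists were highest in the normal library by a wide margin and the last 2 were close in all 3. Within the 71 precursors 5 of the 6 bone genes were at 0 (Bglap, Bglap2, Ibsp, Alpl, Sp7), as were 4 of the 7 B-precursor genes (Vpreb1, Cd79a, Rag1, Dntt). The part of these other cells in the precursor share was not tested.

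The rule genes describe the members and support nothing. In summed UMIs of normal members Elane was at 33.2 (31.9 to 34.5) per 10000, Mpo at 32.0 (30.8 to 33.3), Prtn3 at 34.8 (33.5 to 36.2) and Ctsg at 12.4 (11.6 to 13.2). The other normal cells had 0.107, 0.0600, 0.197 and 0.0734 per 10000. Ms4a3, which the rule did not use, had UMIs in 60 of the 71 normal members (84.5%) and a level of 10.0 (9.35 to 10.8) per 10000. It was at 0.511 in immature neutrophils, 0 in mature neutrophils, 0.0322 in Ly6c2-Ccr2 cells and 0.126 in all other normal cells. Microglia, which should lack it, had an Ms4a3 UMI in 0.130% of cells at a median of 1665 UMIs. In the tumour libraries all 6 members had Ms4a3, with 49 UMIs in the first and 87 in the second. At full depth this marker was detected in most members of all 3 libraries.

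The granule genes did not follow one another equally. Over the 67 normal members with 1000 or more UMIs the Spearman correlation of levels was 0.827 for the neighbours Elane and Prtn3, 0.698 for Mpo and Ctsg, 0.542 for Elane and Mpo and 0.269 for Elane and Ctsg. Ms4a3 had 0.698 with Elane and 0.682 with Mpo. These values describe cells of 1 library that share its depth, and the sum of the 4 genes was fixed to be high.

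Against all other kept cells of the normal library 10.4% of the 13125 genes with at least 50 UMIs in both sums together were at least 2-fold higher in precursors, and 43.1% at least 2-fold lower. The median ratio over all tested genes was 0.602. Total UMIs were the only scaling run for this comparison and for microglia. Among the 20 genes of highest ratio were Ms4a3 (79.8 times), Cst7 (42.7 times, in 39 of 71 members), Prss57 (37.8 times, 33 members), Nkg7 (29.6 times, 51 members) and Gfi1 (12.9 times, 23 members). Cst7 encodes cystatin F, an inhibitor of lysosomal cysteine proteases, and Prss57 a serine protease of the azurophil granule. Gfi1 is a repressor needed for neutrophil development. Fcnb, the ficolin of early neutrophils, was 11.0 times as high, with UMIs in 45 members. The list also held Ear1, Epx, Prg2, Prg3, Mcpt8, Cpa3 and Ms4a2, genes of eosinophils and basophils that were carried by few cells. Ear1 and Epx came from 1 cell each.

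Growth and secretion genes were high beside all other cells. Of 14 S-phase genes tested 14 were over 2-fold higher (median ratio 4.60), with Mcm5 at 5.92, Mcm2 at 5.86 and Mcm6 at 5.80 times; the MCM proteins form the replicative helicase. Of 15 G2/M genes 14 were higher (median 2.71), all but Aspm at 1.11. Of 10 ribosome biogenesis genes 9 were higher (median 3.13), led by Nop10 at 4.97 and Npm1 at 4.50, and Nop56 was at 1.44. Of 12 genes of protein folding in the endoplasmic reticulum 10 were higher (median 3.14), with the chaperones Sdf2l1 at 5.52 and Calr (calreticulin) at 4.72. The shares in these 4 lists stood above the 10.4% of all genes. Against microglia of the same library, where 17.1% of 6815 genes were over 2-fold higher and 36.7% lower (median ratio 0.719), none of the 12 folding genes passed in either direction (median 1.28), while 8 of 10 ribosome biogenesis genes and 13 of 13 S-phase genes did.

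Stem-cell genes were mostly low beside all other cells, a comparison in which 43.1% of all tested genes were lower. Of 11 genes of stem and multipotent progenitors 2 were higher than in all other cells, Kit (5.16 times), the stem cell factor receptor, and Myb (4.50 per 10000 against 0.738), a factor of dividing progenitors. Another 7 were lower, among them Flt3 with 1 UMI in all 71 members and Mecom with none. Cd34 was detected in 19 members at 0.555 per 10000. All 5 neuronal genes and all 4 astrocyte genes were over 2-fold lower in the members than in all other cells. Beside both neutrophil ranges and Ly6c2-Ccr2 cells no tested stem-cell gene was lower. All 3 tested were higher than in immature neutrophils with total UMIs and 2 with TMM (a second scaling, explained below). With both scalings 3 of 4 were higher than in Ly6c2-Ccr2 cells. Beside microglia 2 of 6 were higher and 3 lower.

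Immature neutrophils are the next stage, and precursors differed from them in many genes. Of 5386 genes tested 35.1% (1892) were at least 2-fold higher in precursors and 12.8% (690) lower, with a median ratio of 1.44. S100a8 and S100a9, the calprotectin subunits, took 34.4% of all UMIs in immature neutrophils and 6.68% in precursors. Scaling by TMM factors (edgeR's trimmed mean of M-values) in place of total UMIs lowered every ratio by 0.68 on the log2 scale, and then 975 genes were higher and 1360 lower. The higher genes were 73.3% of calls with total UMIs and 41.8% with TMM. The list counts printed for this comparison are given with both scalings where they differ.

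The tested genes of ribosome biogenesis and of protein folding were all higher under either scaling. All 9 tested genes of ribosome biogenesis were over 2-fold higher in precursors with both scalings (median 13.5 with total UMIs, 8.41 with TMM). Npm1 (nucleophosmin) was at 13.6 per 10000 against 0.718, Ncl (nucleolin) at 8.89 against 1.04 and Nop10 at 4.73 against 0.351. All 11 tested folding genes were higher with both scalings (median 6.82 and 4.25). Calr was at 10.1 against 0.614 per 10000 and Hspa5, the main chaperone of the reticulum, at 8.76 against 1.29. In single members the summed folding list ran from 0 through a median of 53.2 to 132 per 10000, and 70 of 71 members had at least 1 UMI of it.

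Most replication genes were over 2-fold higher than in immature neutrophils, and most mitotic genes did not pass 2-fold. Of 13 S-phase genes 12 were over 2-fold higher with total UMIs (median 4.10) and 9 with TMM (median 2.56). Pcna, the sliding clamp of DNA polymerase, was at 3.92 per 10000 against 1.01, and Mcm6 at 2.55 against 0.336. Of 15 G2/M genes only Ccnb1 passed with total UMIs and none with TMM (median 1.63 and 1.02). Mki67 was at 5.49 against 3.98 per 10000 and Top2a at 8.97 against 5.50. The share of cells with a UMI of either gene at equal total UMIs, given below, was higher in precursors.

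**Figure D2:**
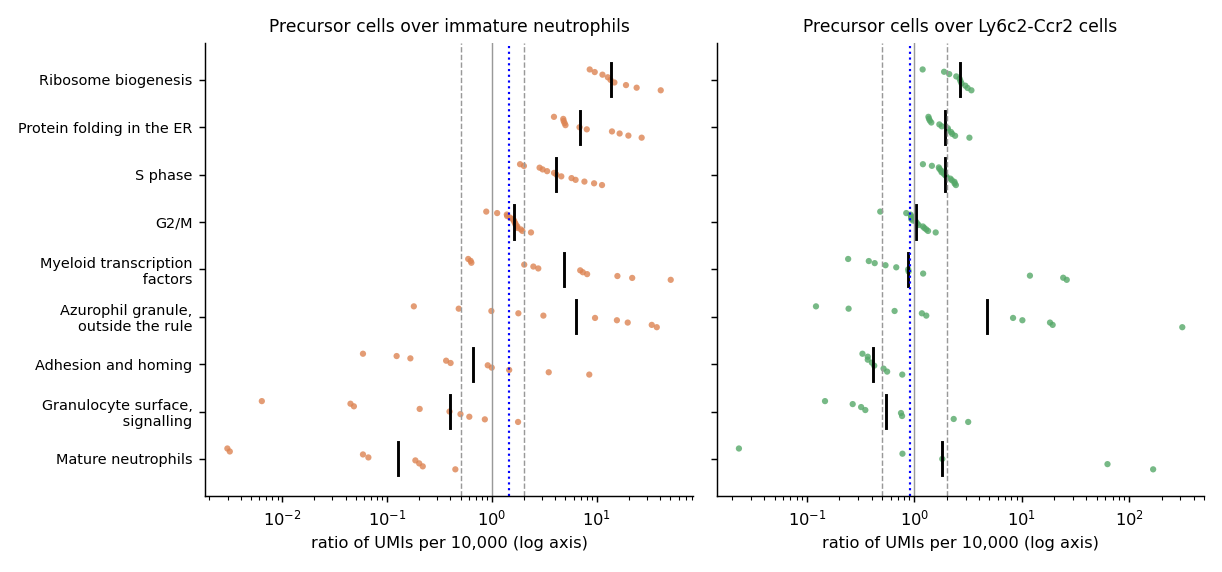
Ratio of summed UMIs per 10000 (log axis, total-UMI scaling) in normal precursor cells over immature neutrophils (left) and over Ly6c2-Ccr2 cells (right), 1 point per tested gene in 9 lists. Black bars are list medians, the blue dotted line is the median of all tested genes (1.44 and 0.908), and dashed lines mark 2-fold either way. Ribosome biogenesis lies farthest right on the left panel (median 13.5), and mature neutrophil genes farthest left (median 0.126).

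The listed genes of mature neutrophils were lower in precursors. All 8 tested mature neutrophil genes were over 2-fold lower with both scalings (median ratio 0.126 with total UMIs, 0.0785 with TMM). Of 4 immature neutrophil genes outside the cut Lcn2, Chil3 and Mmp8 were lower with both scalings. Fcnb was higher with total UMIs, at 11.7 per 10000 against 5.43, and did not pass with TMM. Of its 925 UMIs in members 711 were in 17 cells that also passed the immature neutrophil cut. Fcnb was at 38.1 in those 17, at 6.25 in the members without a further cut and at 2.01 in the Irf8 range described below. Mmp8, the neutrophil collagenase, was at 0.0883 per 10000 against 36.9 and Retnlg at 0.139 against 44.0. Mmp9, a gelatinase, had 3 UMIs against 2452. S100a8 was at 371 against 1837, and 24815 of its 29396 UMIs in members were in the 17 cells past the immature neutrophil cut. Cybb, the catalytic subunit of the NADPH oxidase, which makes superoxide, was at 3.67 against 24.9 per 10000. Of 10 adhesion and homing genes 5 were lower with both scalings, among them Itgam at 1.09 against 8.82 and Cxcr2, the receptor that draws neutrophils from marrow to blood, at 0.202 against 3.44. Ccr2 and Itga4 were the 2 that were higher. Ly6g, the surface marker of neutrophils, had 4 UMIs in all members.

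Azurophil granule genes outside the rule split in this comparison. Of 10 tested, 6 were over 2-fold higher (Ms4a3, Ctsc, Srgn, Nkg7, Plac8, Gusb) and 2 lower (Hp, Lyz2); with TMM Gusb did not pass. Srgn encodes serglycin, the proteoglycan that packs proteases into granules, and was at 17.1 per 10000 against 0.459. Ctsc, the peptidase that activates elastase, proteinase 3 and cathepsin G, was at 1.29 against 0.134. Its level differed between the ranges of members described below. It was at 3.06 in the Irf8 range, 0.242 in the cells without a cut, which had the highest rule scores, and 0 in the Camp range. Serpinb1a, the cytosolic inhibitor of these proteases, was level at 7.01 against 7.12. Lyz2 (lysozyme) was at 21.1 against 118.

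The transcription factors differed as well. Of 12 tested 9 were over 2-fold higher in precursors than in immature neutrophils with total UMIs (Cebpa, Cebpb, Gfi1, Irf8, Myb, Runx1, Klf4, Zeb2, Gata2). With TMM 6 were higher and 3 lower (Cebpd, Cebpe, Spi1). Some of the higher factors came from a part of the members, in ranges described below. The Irf8 range held 194 Irf8 and 108 Klf4 UMIs, and the cells without a cut 10 and 0. Gata2 had 44 UMIs in the 5 basophil-gene cells, 16 in the eosinophil-gene cell and 1 in the 24 cells without a cut. Myb was at 4.50 per 10000 against 0.650 and Cebpa, the factor that starts granulocyte fate, at 0.719 against 0.0981. Cebpe, which drives secondary granule genes, was at 1.48 against 2.49. Receptors were few: Kit was at 1.22 against 0.299 and Csf3r, the G-CSF receptor, at 0.530 against 1.19.

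Beside Ly6c2-Ccr2 cells the members had higher levels of some granule genes and of most ribosome biogenesis genes, and lower levels of most listed monocyte-lineage genes. The 240 such cells of the normal library were mixed: Cd74, H2-Ab1, Siglech, C1qb and Mrc1 were among the genes lowest in precursors beside them, so dendritic and macrophage messages were in this range too. Of the 71 precursors 57 also passed the cut of this range. Of 5719 genes tested 6.84% were over 2-fold higher in precursors and 18% lower, with a median ratio of 0.908. With TMM the higher genes were 36.0% of calls in place of 27.5%, 499 against 888 lower.

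The growth lists had smaller ratios than beside immature neutrophils. Of 10 ribosome biogenesis genes 8 were over 2-fold higher (median 2.66), of 12 folding genes 6 (median 1.92), of 14 S-phase genes 6 (median 1.91) and of 15 G2/M genes none, with Aspm lower at 0.481 times. With TMM the counts were 9, 6, 8 and 0, and Aspm did not pass. Of 10 azurophil granule genes outside the rule 5 were higher (Ms4a3, Srgn, Serpinb1a, Nkg7, Cd63) and 2 lower (Ctsc, Lyz2), with the same counts under TMM (median 4.79 with total UMIs). Ms4a3 was 312 times and Serpinb1a 19.4 times as high, and Lyz2 was at 0.121 times. Camp was 264 times and S100a9 167 times as high, but cells high in these genes had been taken out of the Ly6c2-Ccr2 range, and 4523 of the 4547 Camp UMIs came from 17 members. Rgcc, a regulator of the cell cycle, had 195 UMIs in 41 members and none in the Ly6c2-Ccr2 cells, at least 102 times higher by the floor of 3 counts. Of 6 monocyte-lineage genes outside the cut 5 were lower (Ly86, Csf1r, Klf4, Fn1, Mpeg1), and Irf8 was at 2.57 per 10000 against 4.78. All 5 plasmacytoid dendritic genes were lower, with Siglech at 1 UMI in all members.

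Mature neutrophils stood farthest from precursors in cell-cycle genes. Of 3815 genes tested 39.9% were over 2-fold higher in precursors and 24.4% lower (median ratio 1.32). All 13 tested S-phase genes (median ratio 40.5), all 12 G2/M genes (59.0), all 11 folding genes (11.7) and all 9 ribosome biogenesis genes (16.1) were higher, with the same counts under TMM. Top2a had 711 UMIs in precursors and none in mature neutrophils, at least 143 times higher by the floor of 3 counts. Ms4a3 and Fcnb were also at 0 there.

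The 71 normal members fell into ranges by genes that the rule did not use, and these ranges were drawn after the values were seen. A range needed at least 3 UMIs of its genes. Camp, Ngp and Ltf at 100 or more per 10000 took 17 members, Irf8, Ly86 and F13a1 at 5 or more took 24, and Mcpt8, Cpa3, Ms4a2, Prss34 and Gata2 (basophil and mast cell genes) at 10 or more took 5. One cell had Prg2, Prg3 and Epx, the granule proteins of eosinophils, at 10 or more; it alone passed another cut as well. The remaining 24 passed none. They had the highest rule scores, with a median of 225 per 10000 against 66.4 in the Camp range, 52.3 in the Irf8 range and 42.5 in the basophil-gene range. Ranks ran from 1 to 68 in the group without a cut, so the orders overlapped.

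**Figure D3:**
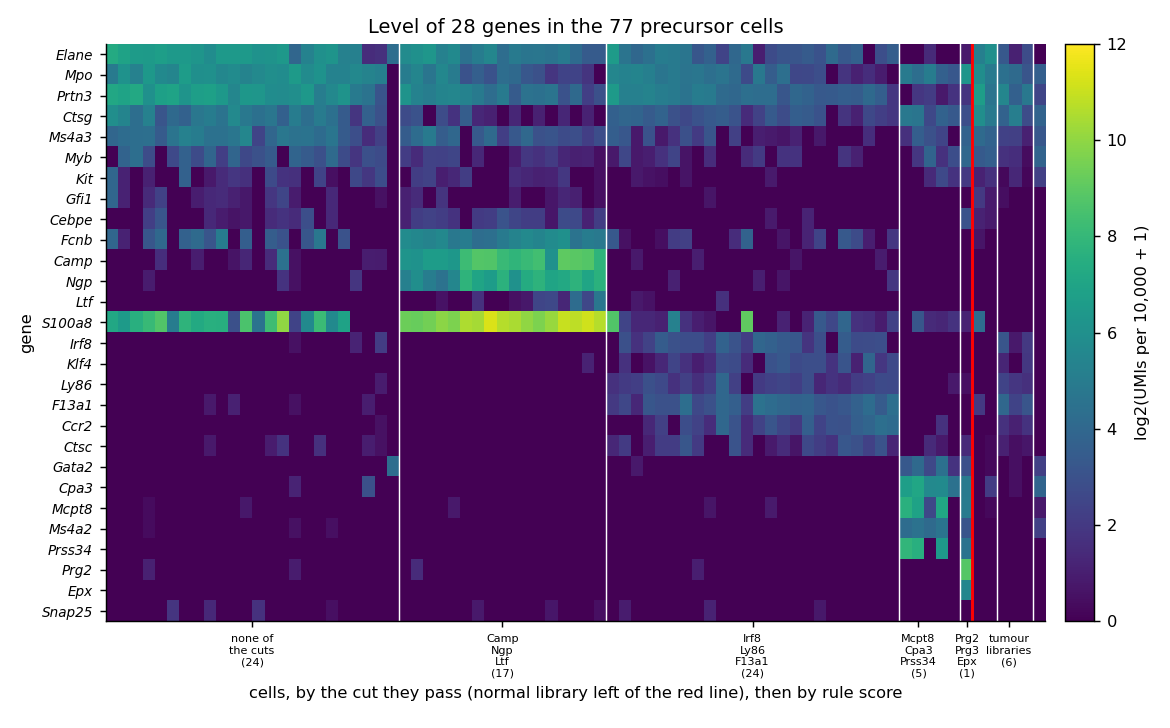
Level of 28 genes, as log2(UMIs per 10000 + 1), in each of the 77 precursor cells. Columns are cells, grouped by the cut they pass (number of cells in brackets), with the 6 tumour cells right of the red line. The blocks of Camp and Ngp (17 cells), Irf8, Ly86 and F13a1 (24 cells) and Cpa3 and Mcpt8 (5 cells) follow from the cuts. The cuts used these genes and each cell was placed in 1 group. Of the normal members 1 passed 2 cuts, the eosinophil-gene cell, with Cpa3 at 28.4 and Mcpt8 at 30.9 per 10000.

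The 24 cells without a cut had the highest levels of the rule genes and Ms4a3 among the 4 ranges that held more than 1 cell. Elane was at 61.8 per 10000, Mpo at 57.4, Prtn3 at 62.2, Ctsg at 25.5 and Ms4a3 at 19.3. The members were chosen on the first 4 of these genes, so those levels are a description. Ctsc, outside the rule, was at 0.242, against 3.06 in the Irf8 range, 0.495 in the basophil-gene range and 0 in the Camp range. Myb was at 8.79 and Kit at 2.18, with UMIs in 20 and 16 of the 24 cells. Gfi1 was at 1.21 (14 cells) and Cebpe at 1.49 (11 cells), whereas Irf8 was at 0.403 (3 cells), Klf4 was not detected and Camp was at 0.806. S100a8 was already at 145, against a background of 2.79 in microglia.

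The 17 cells with secondary granule messages had lower azurophil levels. Camp, the cathelicidin, was at 243 per 10000, Ngp at 120 and Ltf (lactoferrin) at 5.69 by the choice of the cells. Fcnb was at 38.1, in all 17 cells, and Cebpe at 3.27, in 16 cells. Ctsg was at 1.93 and Mpo at 15.2, against 25.5 and 57.4 in the cells without a cut, while Elane kept 29.8 of 61.8. In proportion, Ctsg differed most between these 2 ranges among the rule genes and Elane least. Members of both ranges were chosen on the sum of the rule genes, so these levels and their order are a description. Cells past the Camp cut with a sum under the rule threshold were counted as immature neutrophils and are not in these levels. S100a8 reached 1331. Irf8, Ly86, F13a1, Ccr2, Ctsc and Cd34 had no UMI in any of the 17 cells.

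The 24 cells with Irf8, Ly86 and F13a1 carried monocyte messages beside azurophil ones. Irf8, the factor of monocyte and dendritic fate, was at 6.60 per 10000, Ly86 at 3.98 and F13a1, the clotting factor XIII chain made by monocytes, at 10.3, by the choice of the cells. Klf4, another monocyte factor, was at 3.67 and had UMIs in 21 of the 24 cells, Ccr2 at 5.27 in 20 and Ctsc at 3.06 in 20. Csf1r, the M-CSF receptor, was at 1.19 in 18 cells and Ly6c2 at 41.1 in all. Elane was at 18.4, Mpo at 19.9, Prtn3 at 25.6 and Ms4a3 at 3.10 (16 cells). Kit was at 0.170 and Gfi1 at 0.0340, each far under the cells without a cut. Of these 24 cells 4 were within 2 times of the cut.

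**Figure D4:**
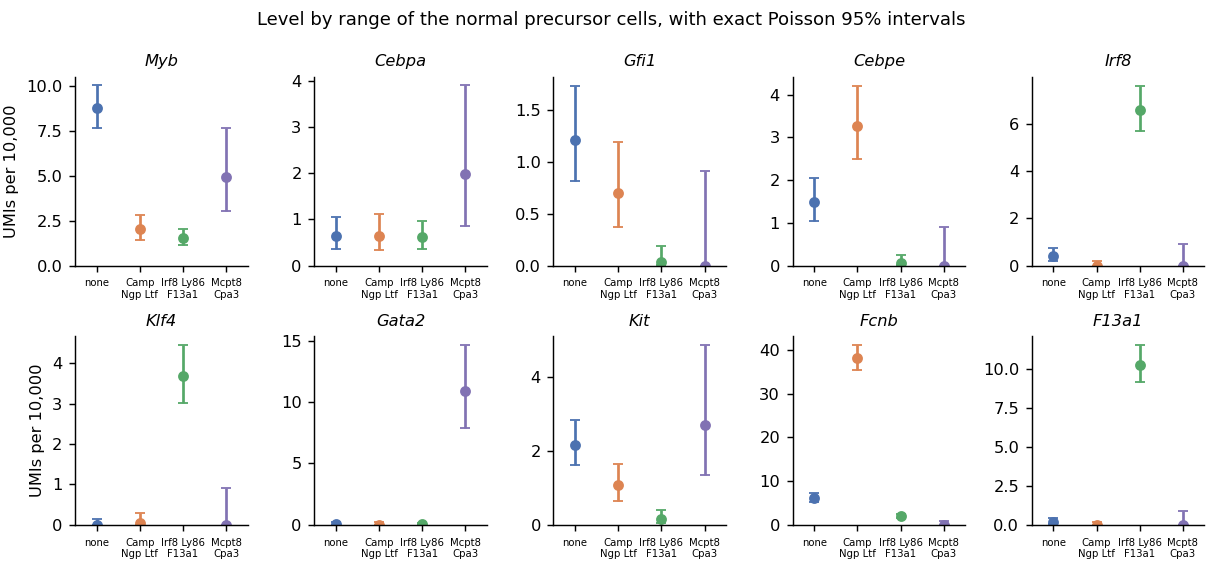
Summed UMIs per 10000 of 10 genes in 4 ranges of the normal precursor cells (24, 17, 24 and 5 cells), with exact Poisson 95% intervals that cover counting error only. Each panel has its own axis from 0. Gfi1 and Cebpe are high in the first 2 ranges, Irf8, Klf4 and F13a1 in the third and Gata2 in the fourth; Irf8, F13a1 and Gata2 were among the genes that drew the ranges.

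Irf8 had UMIs in 24 of 71 members and Gfi1 in 23, with both in 3. Irf8 and Cebpe (30 members) were together in 3 cells, and Ly86 (26 members) and Cebpe in 3. Gfi1 and Cebpe shared 18 cells and Irf8 and F13a1 shared 22. Kit, in 36 members, and Camp, in 30, shared 19. Irf8 shared 12 cells with Fcnb (45 members) and 8 with Kit. Gfi1 had only 44 UMIs over all members, so a cell without a UMI need not lack the message. The overlap that the detection rates alone would give was not computed. These counts depend on depth and are a description of 1 library.

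The basophil-gene and eosinophil-gene cells had the lowest Elane levels of the ranges. Ms4a3 was not lowest in them. It was at 3.71 per 10000 in the basophil-gene cells (4 of 5) and 12.5 in the eosinophil-gene cell, against 3.10 in the Irf8 range. In the 5 cells of the first kind Mcpt8, a basophil protease, was at 79.4 per 10000, Prss34 at 73.5, Cpa3 at 55.7 and Gata2, the factor of basophils and mast cells, at 10.9. They entered the rule through Mpo (16.3) and Ctsg (13.1), in all 5 cells, whereas Elane was detected in 1 cell (0.247 per 10000). Ly6c2, Fcnb, Camp and Irf8 had no UMI in them. The 1 eosinophil-gene cell had Prg2 (major basic protein) at 453 per 10000, Epx (eosinophil peroxidase) at 45.1, Ear2 at 39.2, Mpo at 75.1 and Cebpe at 7.09, with Elane at 0.835. This cell held 1085 of the 1093 Prg2 UMIs of all members and all 108 Epx UMIs. With these 6 cells left out the genes over 2-fold higher than in immature neutrophils were 1752 in place of 1892.

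Precursors had the largest share of cells with cell-cycle messages among the 5 ranges compared in the normal library. After every cell was thinned to 1000 UMIs, 34 of 67 precursors (50.7%, 38.2 to 63.2) had a UMI of Mki67 or Top2a, proteins of dividing cells, and 4 shallower cells were left out. Immature neutrophils had 19.9% (15.8 to 24.7, 331 cells), Ly6c2-Ccr2 cells 21.2% (16.0 to 27.1, 222 cells), mature neutrophils 1.59% (189 cells) and microglia 1.16% (603 cells). Without thinning the shares were 85.9%, 25.7%, 28.7%, 2.39% and 2.34%. The order of precursors over immature neutrophils was the same at 500 UMIs (35.2% and 14.4%) and at 2000 UMIs (71.6% and 22.8%). Thinning made total UMIs equal, but S100a8 and S100a9 took 34.4% of UMIs in immature neutrophils and 6.68% in precursors. Fewer of the thinned UMIs were therefore left for other genes in immature neutrophils, and the part of this in the difference was not tested. In the tumour libraries 0 of 3 and 2 of 3 precursors had such a UMI at 1000 UMIs, too few cells to set beside 50.7%; without thinning all 6 had one. A share of 0 in 3 cells allows up to 70.8%.

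**Figure D5:**
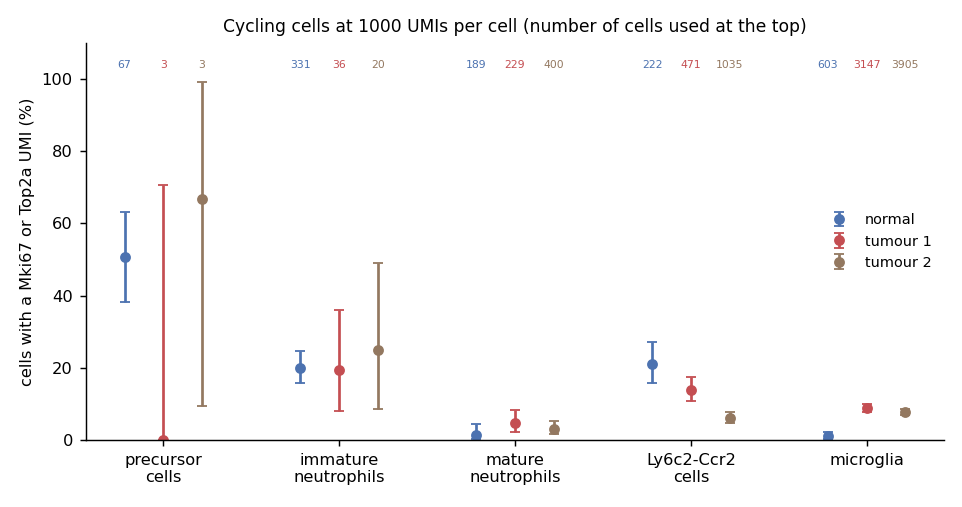
Share of cells with a Mki67 or Top2a UMI after thinning to 1000 UMIs, in 5 cell ranges and 3 libraries, with exact binomial 95% intervals and the number of cells used at the top. Normal precursors stand at 50.7%, above the intervals of the other 4 normal ranges, and the tumour precursors are 3 cells a library.

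The 6 tumour members were deep cells that fell in 3 of the ranges seen in the normal library. Their UMI totals ran from 13036 to 60066. In the first tumour library the cell of highest score (256 per 10000) had 59 Elane, 97 Mpo, 169 Prtn3, 101 Ctsg and 28 Ms4a3 UMIs with 5 Gfi1 UMIs and passed no further cut. The second (63.8) had 7 Ly86, 11 F13a1, 2 Irf8 and 9 Cd34 UMIs and was in the Irf8 range. The third (29.2) had no Elane, 15 Mpo and 17 Ctsg UMIs with 18 Cpa3, 5 Ms4a2 and 5 Gata2 UMIs, and was in the basophil-gene range, where Elane was also sparse in the normal library.

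In the second tumour library the first cell (143 per 10000) had 293 Elane, 135 Mpo, 109 Prtn3, 133 Ctsg, 59 Ms4a3, 53 Myb and 10 Kit UMIs and passed no further cut. It also held 16 Cpa3 UMIs. The other 2 (86.9 and 46.6) were in the Irf8 range, with 41 and 18 Irf8, 23 and 13 Ly86 and 79 and 47 F13a1 UMIs. The last of them was called a doublet and had 29 UMIs of Pdgfra, a receptor of glial progenitors and many gliomas, where the other 5 had 0 or 1; without it the second tumour library had 2 members (0.0213%) and the normal share was 91.4 times the mean tumour share. Camp, Ngp and Ltf had no UMI in any of the 6 cells, while 17 of 71 normal members passed the cut on these genes. S100a8 was at 0 in 5 of the 6, the exception being the first cell of the first library with 30 UMIs. In the normal library 61 of 71 members had S100a8 UMIs, but so did 38.0% of microglia, which should lack it. The summed ribosome biogenesis list was at 65.9 and 52.3 per 10000 in the tumour members against 35.3 in the normal ones, and the folding list at 41.0 and 53.1 against 54.5. These are sums of 3 cells a library with no test.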

How the data were processed

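The authors deposited UMI counts per gene and barcode from 10x 3′ libraries, counted by Cell Ranger 6.1.2 (per the file headers). The submitters' processing notes name mm10. Each library had its own table of 32285 genes. Levels are UMIs summed over cells, per 10000. Ratios used genes with at least 50 UMIs in both sums together, and a side at 0 entered at 3 counts. A gene counted as higher or lower past 2-fold, since the cells compared came from 1 library, with no replicate to test over. Shares have exact Clopper-Pearson and levels exact Poisson 95% intervals, for counting error only. Cells were thinned to 1000 UMIs to compare cycling. Doublets were called with Scrublet in scanpy 1.11.5 (expected rate 8%) and kept unless stated. TMM factors came from edgeR 4.0.16. The planned edgeR test needed 20 members in every library and was not run. The ratio step was tested on simulated data. Named genes are the rule genes, Ms4a3, members of lists and the genes of highest and lowest ratio. Members and lists were chosen with earlier results of these data known. Promoters are from RefSeq and matched all 5 genes. Of 218 list genes 217 were in the files. Where the labels do not name separate animals the spread between libraries may be technical. Some genes of the lists are not reported here.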

Additional observations from a re-analysis of the deposited data

How the results depend on the processing

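No paired analysis was possible because the normal group has 1 library and no test was made. The normal share over the mean tumour share was 73.0 to 82.6 with 1 tumour library left out, and 48.0 (threshold of 10 per 10000) to 91.4 (doublets left out) under the other settings. Over 13 results 128 alternative values were computed. Of these 106 stayed within 1.5 times (counts of genes) or within the counting interval, and the other 22 are as follows. The share of normal members with Ms4a3 was 93.2% at a threshold of 30 per 10000. The cycling share was 35.2% at 500 UMIs, 71.6% at 2000 UMIs and 76.1% with any G2/M gene. With at least 20 or 100 UMIs per gene the genes higher than in immature neutrophils were 3114 or 1069, than in mature neutrophils 2785 or 808, and than in Ly6c2-Ccr2 cells 692 or 203. The lower genes were 1472 or 521 for mature neutrophils and 1668 or 610 for Ly6c2-Ccr2 cells. Past 4-fold the higher genes were 674, 974 and 95 and the lower 268, 471 and 360 in the same order. With TMM factors 975 genes were higher and 1360 lower than in immature neutrophils, which turned the split from mostly higher to mostly lower. The counts moved with the number of genes tested or the fold asked, and the cause of the TMM change was not tested. Leaving out the Irf8, Camp or basophil and eosinophil ranges, chosen after seeing the data, kept the counts within 1.5 times. The tumour members are limited by their number, 3 cells a library, and the normal library by its lower depth.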
